A study of Homo sapiens with 4 samples.

Results

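The interleukin-1 (IL-1) family was followed here through 10 of its genes, 6 that encode ligands or an antagonist (IL1A, IL1B, IL1RN, IL18, IL33 and IL36G) and 4 that encode receptor chains (IL1R1, IL1R2, IL1RAP and IL1RL1). They were found by gene symbol, and all 10 were among the 61228 features of the count tables. RNA-seq had been made from H1792, an established human lung cancer cell line whose genotype is labelled WT. Cells received either the solvent DMSO (2 libraries) or ACBI1 (2 libraries) for 96 h, and the groups differed in no other labelled condition. The labels write the ACBI1 dose as 1 mM, a unit that gene counts cannot check. Micromolar doses are more usual for such a compound, so the unit is in doubt. ACBI1 is a PROTAC, a molecule that brings a target protein to a ubiquitin ligase so that it is degraded. It acts on SMARCA2 and SMARCA4, which are the motor subunits of SWI/SNF chromatin remodellers, and on PBRM1, found in the PBAF form of these remodellers. Both groups come from 1 cell line, and the labels do not say whether replicates were separate cultures, so p-values measure the spread between these libraries, which may be technical.

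IL-1 family ligands are alarm signals of epithelial and myeloid cells. IL-1 alpha and IL-1 beta bind the receptor IL-1R1, which then recruits the accessory chain IL-1RAP and passes the signal through MYD88 and IRAK kinases to NF-kB. IL-1RN is an antagonist that occupies IL-1R1 without signalling, and IL-1R2 is a decoy receptor. IL-33 binds ST2, the product of IL1RL1, which shares IL-1RAP as its partner. IL-1 beta and IL-18 are made as precursors that caspase-1 cleaves, whereas the precursor of IL-1 alpha is already active. IL-36 gamma is an epithelial ligand of the family with a receptor of its own.

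Gene counts summed to between 64281850 and 86010100 per library. Levels are given as CPM, counts scaled to a common library size with TMM factors. A gene was called when its edgeR quasi-likelihood p, adjusted by Benjamini-Hochberg over all 19159 genes that passed a filter on low counts, was under 0.05. By that rule 17.4% of tested genes were called, 10.6% lower with ACBI1 and 6.75% higher. Transcripts of SMARCA4 (250 ± 47.8 and 406 ± 11.3 CPM, SD, n = 2), SMARCA2 (23.6 ± 1.17 and 17.9 ± 0.639 CPM) and PBRM1 (50.1 ± 6.87 and 53.6 ± 2.80 CPM) with DMSO and ACBI1 were not called, and they do not check the degradation of proteins. SMARCA4 was close to the threshold (edgeR adjusted p 0.0583) and was called higher under 8 of 12 alternative fits, DESeq2 among them. Of the lung epithelial markers, the keratin genes KRT7, KRT8 and KRT18 were abundant, NKX2-1 had 0 counts in each library and SFTPC had 1 count in all. CDH1, of the same list, had 20 counts over the DMSO libraries and 13 over the ACBI1 libraries. Among 10 leukocyte markers, CD3E, MS4A1, FCGR3A and CD163 had 0 counts in each library and PTPRC had 5 counts over all libraries, and the list summed to 0.504 and 1.15 CPM with DMSO and to 0.681 and 0.534 CPM with ACBI1. The leukocyte markers with enough counts to test were CD14 and ITGAM, and neither was called. CD14 had 17 and 47 counts with DMSO and 10 and 15 with ACBI1. ITGAM had 8 and 20 with DMSO and 42 and 11 with ACBI1.

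The ligand genes IL1A and IL1B, abundant with DMSO, both fell with ACBI1, IL1B to 6 counts over both libraries and IL1A to 201, the receptor gene IL1R1 was 4.41-fold lower, and IL1RL1 and IL36G fell from low levels. Of the 10 members, 8 had enough counts to test, 5 of these were called, each of them lower, and each of the 8 had a negative log2 change. Over all tested genes, 17.4% were called and 10.6% were called lower. The median log2 change of the 8 was -3.14, and that of all tested genes was 0.01. In 6 of the 8 both ACBI1 libraries lay below both DMSO libraries, which held for 32.2% of all tested genes, while 63.2% had groups that did not overlap in either direction. IL1RN and IL33 had too few counts to test and are given as counts. Some members passed the filter through their DMSO counts alone, so the count of falls among those tested is a description. In these bulk libraries, fewer cells that express a gene and less RNA per cell cannot be told apart.

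**Figure D1:**
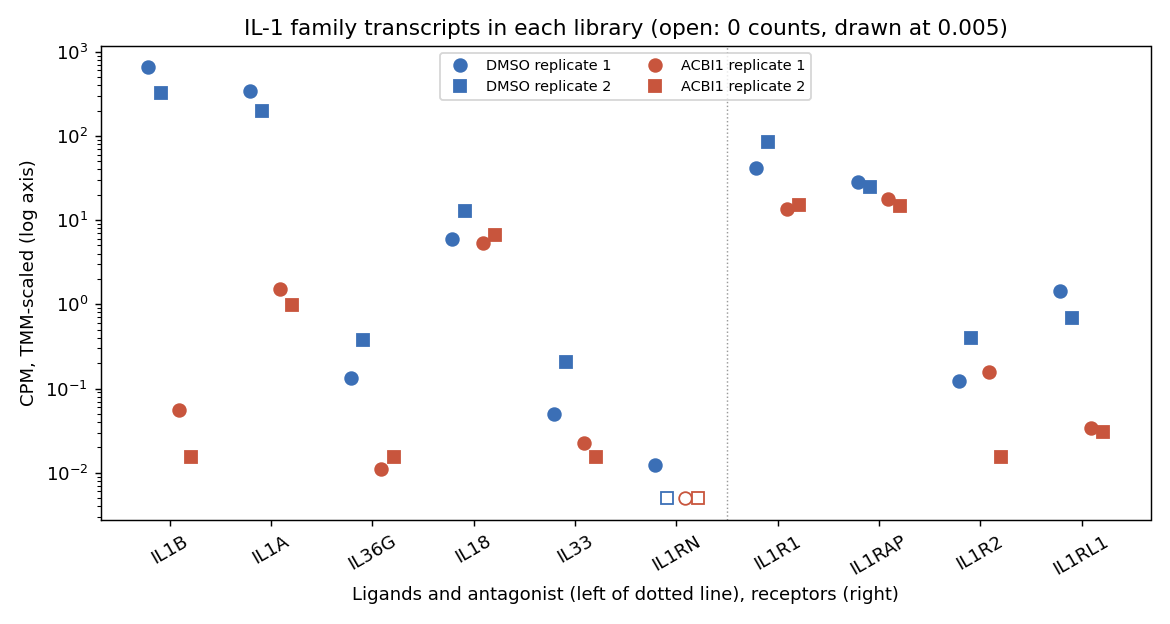
CPM of the 10 members in each library on a log axis (blue, DMSO; red, ACBI1; circles, replicate 1; squares, replicate 2; open symbols, libraries with 0 counts, drawn at 0.005). IL1B fell from 651 and 321 CPM to 0.0559 and 0.0153 CPM, while the groups of IL18 and IL1R2 overlapped.

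IL1B, which encodes the secreted cytokine IL-1 beta, had 52994 and 23111 counts in DMSO replicates 1 and 2, and 5 and 1 counts in the ACBI1 libraries. In CPM these were 651 and 321 against 0.0559 and 0.0153. Every DMSO value lay far above every ACBI1 value. The ratio of DMSO to ACBI1 was 12830, with a 95% exact interval from 5892 to 34950 that covers counting error only. The log2 change was -13.57 (SE 0.66, edgeR adjusted p 0.00126), which ranked 2 of 19159 from the most negative. Without ACBI1 replicate 1 it was -14.80, and without DMSO replicate 1 it was -12.97.

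IL1A, the gene of IL-1 alpha, lies next to IL1B and kept a measurable remainder. It had 27640 and 14347 counts with DMSO and 137 and 64 with ACBI1. In CPM these were 339 and 199 against 1.53 and 0.976, so the groups did not overlap. The log2 change was -7.73 (SE 0.42, edgeR adjusted p 0.0014), ranked 75 of 19159. Per kilobase of exonic length, the IL1B level was 1.32 and 1.11 times the IL1A level in DMSO replicates 1 and 2. With ACBI1 the same ratio of levels was 0.0250 and 0.0107, so that IL1A was the more abundant of the pair. IL1A and IL1B together made up 92.8% and 80.6% of the summed CPM of the 10 members in DMSO replicates 1 and 2. In the ACBI1 libraries they made up 4.10% and 2.62%.

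The other ligands were much less abundant. IL36G had 11 and 27 counts with DMSO and 1 and 1 with ACBI1, which is 0.135 and 0.375 CPM against 0.0112 and 0.0153 CPM. Its ratio of DMSO to ACBI1 was 19.2 (95% exact counting interval 4.96 to 164), with a log2 change of -4.13 (SE 0.91, edgeR adjusted p 0.0310). The call on IL36G was lost without DMSO replicate 2 (log2 change -3.23, adjusted p 0.0954), without ACBI1 replicate 1 (-3.91, adjusted p 0.112) and without ACBI1 replicate 2 (-4.33, adjusted p 0.0710). IL33, which encodes a nuclear alarmin of barrier cells, had 4 and 15 counts with DMSO and 2 and 1 with ACBI1. The ratio for IL33 was 6.40 with a counting interval from 1.89 to 33.8, and it was not tested. The antagonist gene IL1RN had 1 count in DMSO replicate 1 and 0 in the other libraries, too few for any comparison. A count of 0 allows up to 3 counts in a library, which is 0.0335 to 0.0458 CPM depending on the library.

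IL18, whose product is cleaved by caspase-1 as IL-1 beta is, did not follow IL1A and IL1B. It had 6.03 and 12.98 CPM with DMSO and 5.42 and 6.74 CPM with ACBI1, and the groups overlapped. The log2 change of -0.64 (SE 0.40, 95% interval -1.61 to 0.32) was not called (edgeR adjusted p 0.306). It depended on which DMSO library was used. Without DMSO replicate 1 the log2 change of IL18 was -1.10 (adjusted p 0.0461), and without DMSO replicate 2 it was 0.01 (adjusted p 0.991).

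Among receptor genes, IL1R1 encodes the chain that binds IL-1. It stood at 41.2 and 85.5 CPM with DMSO and 13.5 and 15.2 CPM with ACBI1. The DMSO libraries were 2.08-fold apart and still lay above both ACBI1 libraries. The mean CPM ratio of DMSO to ACBI1 was 4.41, and the log2 change was -2.14 (SE 0.35, edgeR adjusted p 0.0138). Without DMSO replicate 2 it was -1.52, and without DMSO replicate 1 it was -2.58, called in both cases.

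IL1RAP encodes the accessory chain shared by the receptors for IL-1, IL-33 and IL-36. It was at 28.4 and 25.0 CPM with DMSO and 18.0 and 14.8 CPM with ACBI1. Both ACBI1 values were lower, and the log2 change of -0.70 (SE 0.19, 95% interval -1.17 to -0.24) missed the threshold (edgeR adjusted p 0.0545). DESeq2 called IL1RAP lower (adjusted p 0.0172), as did the fits with a wider or narrower gene filter (0.0214 and 0.0450). Over 12 alternatives its adjusted p ranged from 0.00175 to 0.225.

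IL1RL1, the gene of the IL-33 receptor ST2, had 117 and 49 counts with DMSO and 3 and 2 counts with ACBI1. These were 1.44 and 0.681 CPM against 0.0335 and 0.0305 CPM, without overlap. The log2 change was -4.97 (SE 0.66, edgeR adjusted p 0.00788), and it was -4.33 without DMSO replicate 1. IL1RL1 passed the filter on low counts through its DMSO libraries alone, so that it could only be called lower. The decoy receptor gene IL1R2 had 10 and 29 counts with DMSO and 14 and 1 with ACBI1. One ACBI1 library thus lay between the DMSO libraries. Its log2 change of -1.50 had a 95% interval from -3.85 to 0.86 and was not called (edgeR adjusted p 0.329). Without ACBI1 replicate 1 it was -3.95 (adjusted p 0.122), and without DMSO replicate 2 it was -0.42 (adjusted p 0.864).

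Ordered by level per kilobase of exonic length, the DMSO libraries had IL1B (210 and 104 CPM per kb) and IL1A (160 and 93.9) at the top, and their ranges overlapped. IL1R1 followed at 5.81 and 12.1 CPM per kb, then IL18 (2.29 and 4.94) and IL1RAP (2.46 and 2.16), whose ranges overlapped. IL36G, IL1RL1, IL1R2 and IL33 lay between 0.0151 and 0.272 CPM per kb, each overlapping its neighbour in the order. With ACBI1 the order began with IL18 (2.06 and 2.57 CPM per kb) and IL1R1 (1.91 and 2.14), which overlapped, followed by IL1RAP (1.56 and 1.28) and IL1A (0.721 and 0.460). Among 18290 tested genes with a known exonic length, the level of IL1B per kilobase ranked 183 with DMSO and 18020 with ACBI1, and that of IL1A ranked 242 and 12895.

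The promoters of the 3 members with the largest fitted falls are shown beside that of IL1RAP, which was not called. Each is the 250 bases before the start listed first for the gene by RefSeq (GRCh38.p14), from 5′ to 3′ on the strand of the gene. The table held 9 of the 10 members, without IL18. Capitals mark matches to the AP-1 motif (TGANTCA) or the C/EBP motif (TTGCNNAA), searched on both strands.
IL1A, chr2:112784494-112784743, minus strand: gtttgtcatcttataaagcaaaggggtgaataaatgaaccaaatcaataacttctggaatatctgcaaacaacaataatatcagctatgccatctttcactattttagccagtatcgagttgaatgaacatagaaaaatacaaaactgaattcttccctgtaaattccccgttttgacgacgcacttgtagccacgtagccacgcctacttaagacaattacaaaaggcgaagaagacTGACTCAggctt
IL1B, chr2:112836780-112837029, minus strand: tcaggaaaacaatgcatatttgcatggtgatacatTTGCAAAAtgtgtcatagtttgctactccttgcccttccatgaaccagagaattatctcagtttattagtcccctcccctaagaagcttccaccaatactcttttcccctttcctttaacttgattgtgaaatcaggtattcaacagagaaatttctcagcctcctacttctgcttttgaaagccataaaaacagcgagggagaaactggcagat
IL1RL1, chr2:102337007-102337256, plus strand: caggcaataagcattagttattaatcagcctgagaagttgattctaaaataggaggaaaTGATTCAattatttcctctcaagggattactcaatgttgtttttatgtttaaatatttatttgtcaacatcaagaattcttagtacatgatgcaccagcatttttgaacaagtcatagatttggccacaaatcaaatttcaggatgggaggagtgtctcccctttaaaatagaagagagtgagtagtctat
IL1RAP, chr3:190513835-190514084, plus strand: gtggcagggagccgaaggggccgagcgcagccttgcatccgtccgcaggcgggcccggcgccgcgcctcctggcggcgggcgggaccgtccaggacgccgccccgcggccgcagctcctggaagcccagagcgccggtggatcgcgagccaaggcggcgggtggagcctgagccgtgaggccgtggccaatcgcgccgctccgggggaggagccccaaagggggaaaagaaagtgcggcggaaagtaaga
IL1A held an AP-1 match 12 to 6 bases before the start, and IL1RL1 held one 191 to 185 bases before it. IL1B held a C/EBP match 215 to 208 bases before the start, and IL1RAP held none of these motifs. Among the promoters not shown, IL1RN held an AP-1 match 223 to 217 bases before the start, while those of IL36G and IL1R1, which were called lower, and of IL33 and IL1R2 held no match. Of 27305 promoters, 6.60% held the AP-1 motif, 9.13% the C/EBP motif and 9.57% the NF-kB consensus, which none of the 9 promoters held in these windows. The share of G and C was 37.6% in IL1A, 40.0% in IL1B, 33.2% in IL1RL1 and 74.8% in IL1RAP, and 9.36%, 13.2%, 3.80% and 89.7% of all promoters had a lower share. CpG pairs numbered 7, 1, 0 and 33 in that order. A match describes these letters only.

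**Figure D2:**
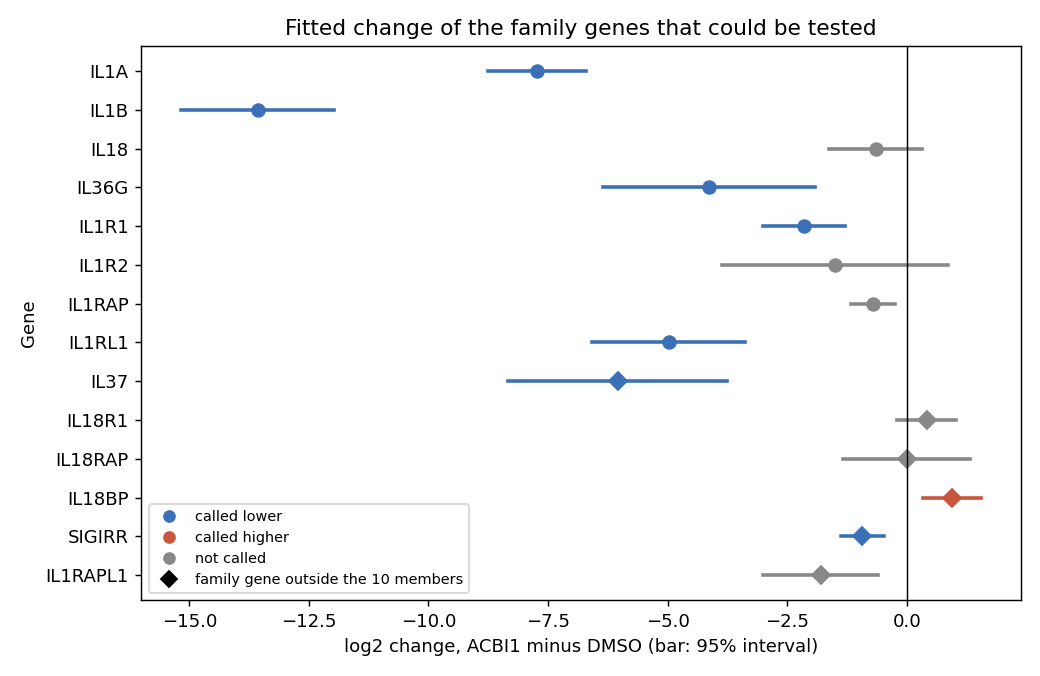
Log2 change (ACBI1 minus DMSO) with its 95% interval for the 8 members (circles) and 6 other family genes (diamonds) that could be tested, blue where called lower, red where called higher and grey where not called. IL1B at -13.57 and IL1A at -7.73 lie farthest to the left, and IL18BP at 0.94 is called higher.

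The 12 other genes of the family included 6 with enough counts to test, with a median log2 change of -0.46. Of the 6, 2 were called lower and 1 higher, against 10.6% and 6.75% of all tested genes. Without DMSO replicate 2 or ACBI1 replicate 1, 1 of them was called. IL37, an anti-inflammatory ligand gene, had 31 and 50 counts with DMSO and 0 and 1 with ACBI1. IL37 passed the filter on low counts through its DMSO libraries alone, so that it could only be called lower. Its ratio of DMSO to ACBI1 was 81.9, with an exact 95% counting interval of 14.3 to 3275. The fitted log2 change of IL37 was -6.04 (edgeR adjusted p 0.0119). Leaving out ACBI1 replicate 2 gave -8.45, and leaving out ACBI1 replicate 1 gave -4.98, called in both cases. SIGIRR, which encodes an inhibitory receptor of the family, was at 20.4 and 20.4 CPM with DMSO and 10.97 and 10.5 CPM with ACBI1. Its log2 change of -0.92 (edgeR adjusted p 0.0240) was called without DMSO replicate 1 (adjusted p 0.0424). It was not called without DMSO replicate 2 (0.0547), ACBI1 replicate 1 (0.103) or ACBI1 replicate 2 (0.102).

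IL18BP, a soluble inhibitor that binds IL-18, was the family gene called higher. It was at 15.7 and 11.8 CPM with DMSO and 30.7 and 22.1 CPM with ACBI1. The log2 change of 0.94 (SE 0.25, edgeR adjusted p 0.0496) was close to the threshold. It was 0.75 without DMSO replicate 2 (adjusted p 0.128) and 0.69 without ACBI1 replicate 1 (adjusted p 0.229). Exons of NUMA1 on the opposite strand overlap 15.6% of the exonic length of IL18BP, and the strand setting of the counting is not given in the sources used here. IL18R1, the chain that binds IL-18, was at 23.0 and 19.7 CPM with DMSO and 34.8 and 22.2 CPM with ACBI1 (log2 change 0.42, 95% interval -0.19 to 1.03, not called). Its partner gene IL18RAP had 29 DMSO counts and 30 ACBI1 counts. The neuronal receptor gene IL1RAPL1, with 77 and 22 counts in these groups, was not called (log2 change -1.80, adjusted p 0.0561). IL1RL2, the receptor gene for IL-36, had 14 and 6 counts, and IL36RN, the gene of its antagonist, had 1 and 0. IL36A, IL36B, IL1F10 and IL1RAPL2 had 0 counts in each library.

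Most family genes lie in a pair of clusters on chromosome 2 (GRCh38, GENCODE release 29). The ligand genes IL1A (112773915 to 112784590, minus strand), IL1B (112829751 to 112836903, minus strand), IL36G (112973203 to 112985665, plus strand) and IL1RN (113107214 to 113134016, plus strand) form the first. The receptor genes IL1R2 (101991844 to 102028544), IL1R1 (102064544 to 102179874) and IL1RL1 (102311502 to 102352037), all on the plus strand, form the other. IL1RAP is on chromosome 3 (190514051 to 190659750, plus strand), IL33 on chromosome 9 (6215786 to 6257983, plus strand) and IL18 on chromosome 11 (112143251 to 112164117, minus strand). Relative to the start of IL1B, that of IL1A lies at -52.3 kb and those of IL37 and IL36G at 76.1 and 136.3 kb, and all 4 of these genes were called lower. Of these, IL1B, IL37 and IL36G passed the filter on low counts through their DMSO libraries alone, so that they could only be called lower. CKAP2L, a mitotic spindle gene 9238 bases from the IL1A gene, was at 79.7 and 65.9 CPM with DMSO and 53.5 and 53.6 CPM with ACBI1, and was not called (log2 change -0.44, adjusted p 0.118). PSD4, on the far side of the ligand cluster, had a log2 change of 0.19 (adjusted p 0.745). PAX8, the next flanking gene beyond PSD4, was called lower (log2 change -1.50, edgeR adjusted p 0.0139). These distances use the outermost start in GENCODE, which for IL1RL1 is not the RefSeq start of the promoter printed above. By GENCODE the start of IL18R1 lies beside that of IL1RL1, and IL18R1 had the log2 change of 0.42 given above, against -4.97 for IL1RL1.

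**Figure D3:**
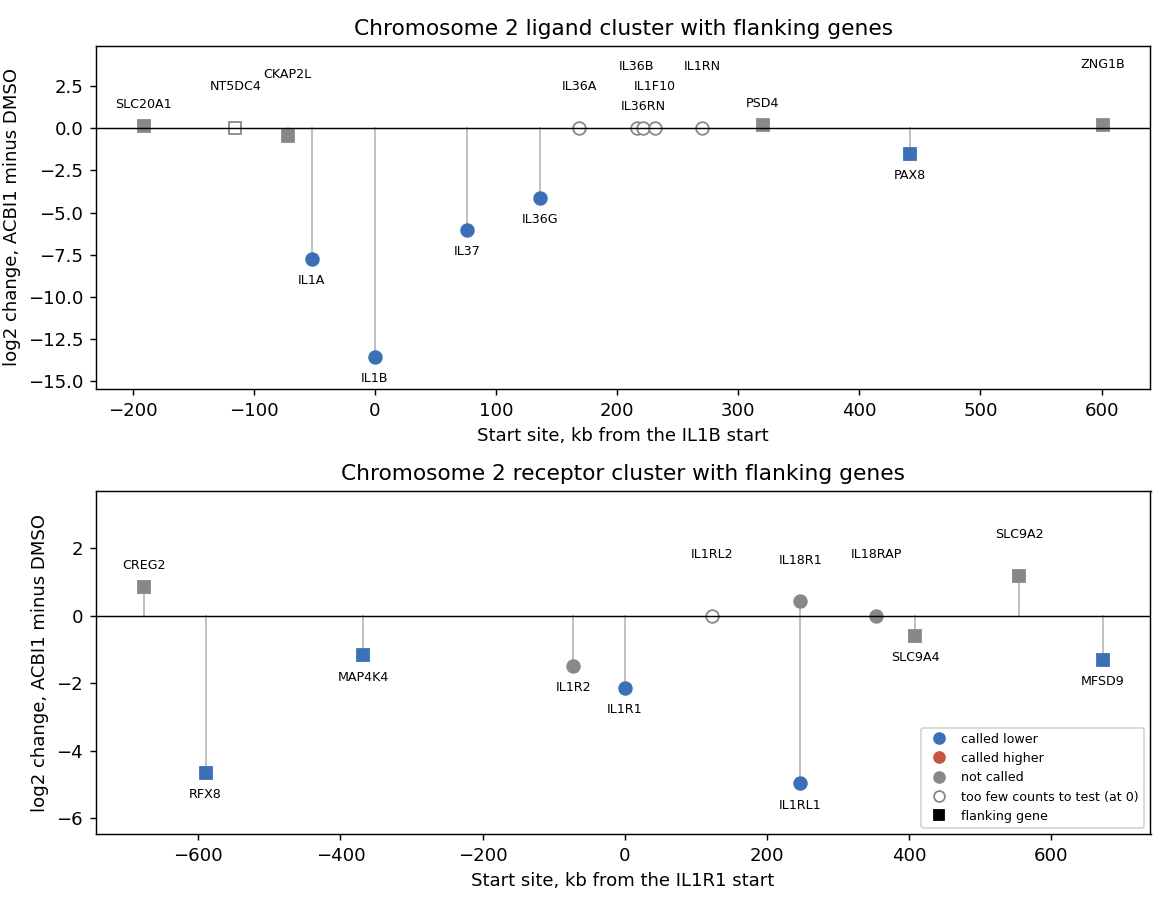
Log2 change of family genes (circles) and flanking protein-coding genes (squares) against the distance of their start sites from that of IL1B (top) or IL1R1 (bottom), in kb; open symbols at 0 mark genes with too few counts to test. IL1A, IL1B, IL37 and IL36G lie below -4, and the flanking genes of the ligand cluster lie between -1.50 and 0.19.

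Over all members, the 3 nearest protein-coding genes outside the family on each side made a list of 30, of which 23 were tested, 4 called lower and 1 higher, with a median log2 change of -0.21. These 5 calls among 23 were near the 17.4% called over all tested genes, and the genes are listed as a description. RFX8, a transcription factor gene that flanks the receptor cluster, was at 19.6 and 4.73 CPM with DMSO and 0.793 and 0.137 CPM with ACBI1 (log2 change -4.67, adjusted p 0.0277). GLDC, a glycine cleavage enzyme gene near IL33, rose from 3.49 ± 1.05 to 15.7 ± 0.795 CPM (SD, n = 2). PAX8 (log2 change -1.50, adjusted p 0.0139) and MFSD9 (-1.30, adjusted p 0.0298) fell. MAP4K4, a kinase gene 97155 bases from IL1R2 and named after its values were seen, was the remaining one called lower, from 484 ± 43.9 to 214 ± 1.01 CPM (SD, n = 2). The call on MFSD9 was lost without DMSO replicate 2 (adjusted p 0.0501) and without ACBI1 replicate 1 (adjusted p 0.0847). The log2 change of RFX8 was -3.31 without DMSO replicate 1, -5.35 without DMSO replicate 2, -6.45 without ACBI1 replicate 1 and -3.94 without ACBI1 replicate 2. CKAP2L and PSD4 were named after their values were seen.

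Of 16 genes that process or release IL-1 family ligands, 12 were tested, with a median log2 change of -1.11. Of the 12, 8 were called, each of them lower, while 17.4% of all tested genes were called and 10.6% were called lower. Of these, CASP1 and MEFV passed the filter on low counts through their DMSO libraries alone, so that they could be called in 1 direction only. CASP1, the gene of the protease that cleaves the IL-1 beta and IL-18 precursors, had 735 counts over the DMSO libraries and a single count over the ACBI1 libraries. Its CPM were 6.15 and 3.25 against 0.0112 and 0, and the ratio was 743, with an exact 95% counting interval of 133 to 29390. The fitted log2 change of CASP1 was -9.20 (edgeR adjusted p 0.00265), with -11.42 when ACBI1 replicate 1 was left out and -8.54 when ACBI1 replicate 2 was. CASP4, an inflammatory caspase gene, fell from 116 ± 30.1 to 34.4 ± 4.38 CPM (SD, n = 2). NLRP1, an inflammasome sensor gene, was at 31.4 and 30.9 CPM with DMSO and 7.03 and 2.96 CPM with ACBI1, a log2 change of -2.63 (adjusted p 0.0118; -3.39 without ACBI1 replicate 1). MEFV, which encodes the sensor pyrin, had 84 counts in the DMSO group and 4 in the ACBI1 group (log2 change -4.28, adjusted p 0.0132). Without ACBI1 replicates 1 or 2 the log2 change of MEFV was -3.52 or -5.43. The genes of calpains 1 and 2, proteases that cleave the IL-1 alpha precursor, were not called, with log2 changes of -0.50 for CAPN1 (95% interval -0.99 to -0.01) and -0.39 for CAPN2 (-0.83 to 0.06). The sensor gene NLRP3 had 2 counts in the DMSO group and 0 in the ACBI1 group. CAPN1, CAPN2 and NLRP3 were named after their values were seen.

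All 26 signalling genes downstream of the receptor were tested, 7 were called lower and 1 higher, and the median log2 change was -0.30. For comparison, 10.6% of all tested genes were called lower and 6.75% higher. MYD88, the adaptor of IL-1 receptors, was at 43.7 and 59.3 CPM with DMSO and 16.9 and 21.3 CPM with ACBI1, a log2 change of -1.43 (edgeR adjusted p 0.0117). IRAK2, a kinase gene that sustains the signal, fell from 169 ± 3.12 to 46.5 ± 4.27 CPM (SD, n = 2). MAP3K8, which encodes a kinase that activates the ERK pathway, fell from 25.9 ± 5.13 to 5.65 ± 0.103 CPM (SD, n = 2). The ubiquitin ligase gene PELI2 had 74 and 10 counts in the DMSO and ACBI1 groups (log2 change -2.92, adjusted p 0.0262). PELI2 passed the filter on low counts through its DMSO libraries alone, so that it could only be called lower. It was at -3.91 without ACBI1 replicate 1 and was not called without ACBI1 replicate 2 (-2.43, adjusted p 0.0768). IRAK1, the kinase gene that went the other way, was at 262 and 210 CPM with DMSO and 417 and 400 CPM with ACBI1 (log2 change 0.79, adjusted p 0.0358). The call on IRAK1 was lost when DMSO replicate 2 (adjusted p 0.112), ACBI1 replicate 1 (0.131) or ACBI1 replicate 2 (0.102) was left out. Without DMSO replicate 2, 5 signalling genes were called, and 4 without either ACBI1 library. The genes of the 5 NF-kB subunits, singled out after their values were seen, were not called. Their log2 changes were -0.49 for NFKB1, close to 0 for NFKB2, 0.50 for RELA, 0.51 for RELB and 0.56 for REL (edgeR adjusted p 0.0539). Exons of another gene on the same strand overlap 43.3% of the exonic length of REL.

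Genes that IL-1 is known to induce made the list with the largest share of called falls among the 6 lists compared. Of 29 such genes 28 were tested, 24 were called lower and 1 higher, and the median log2 change was -3.36. Among all tested genes, 10.6% were called lower and 6.75% higher. The list shares cytokine genes whose falls in these libraries were known when it was drawn up, so it is not independent evidence of a direction. The called falls with the largest fitted change were those of CSF3 and CSF2, which encode growth factors for myeloid cells, LCN2, which encodes the iron carrier lipocalin 2, and VCAM1, which encodes an adhesion molecule. In the DMSO and ACBI1 groups, counts were 17169 and 1 for CSF3 and 51737 and 9 for CSF2. They were 28118 and 5 for LCN2, and 600 and 0 for VCAM1. For VCAM1 this makes DMSO at least 101-fold higher, against a floor of 3 counts in each ACBI1 library. CSF3, CSF2, LCN2, VCAM1 and some other genes of the list passed the filter on low counts through their DMSO libraries alone. They could therefore only be called lower. BIRC3, an apoptosis inhibitor gene that NF-kB induces, went the other way. It was at 136 and 109 CPM with DMSO and 746 and 356 CPM with ACBI1 (log2 change 2.16, adjusted p 0.0154), and at 1.54 without ACBI1 replicate 1. CCL2 (log2 change -1.44), PTGES (-0.55) and G0S2 (-3.04, adjusted p 0.0540), named after their values were seen, were not called.

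**Figure D4:**
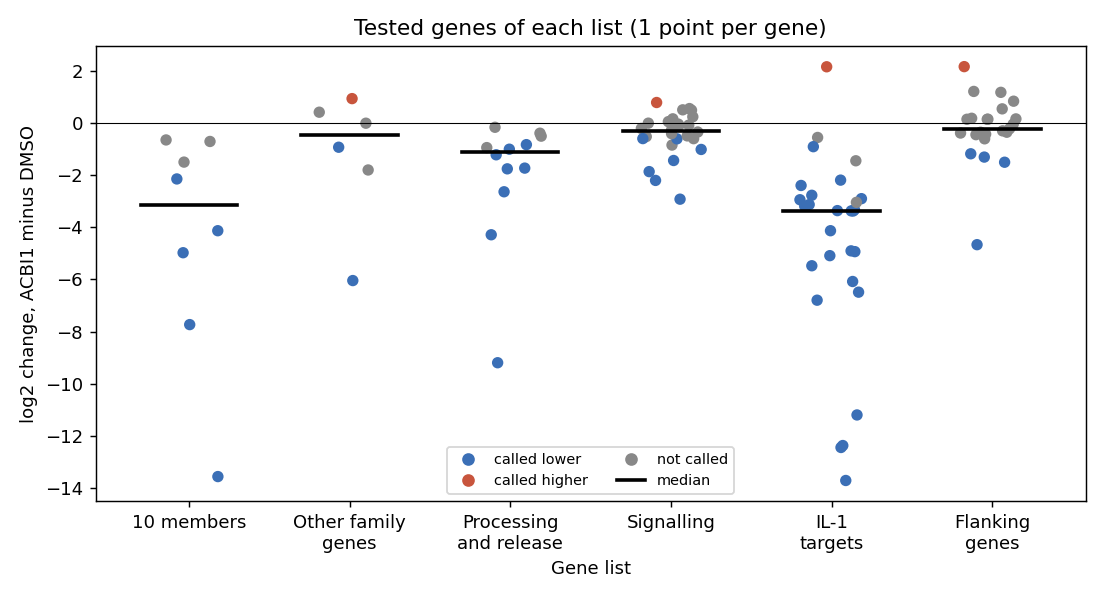
Log2 change of each tested gene in the 6 lists (1 point per gene, blue where called lower, red where called higher, grey where not called; bar, median). Medians run from -3.36 for IL-1 target genes and -3.14 for the 10 members to -0.21 for flanking genes.

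Markers in some of the cell type lists were lower with ACBI1 as well. The share called lower over all tested genes was 10.6%. Of 10 lung epithelial markers, 6 were tested and 4, the keratin genes KRT7, KRT8, KRT18 and KRT19, were called lower, and the list summed to 982 and 1035 CPM with DMSO and to 323 and 202 CPM with ACBI1. The sums were carried by the keratin genes. EPCAM, an epithelial adhesion gene of the same list, was at 5.38 and 2.78 CPM with DMSO and 15.6 and 4.84 CPM with ACBI1 (log2 change 1.32, adjusted p 0.179, not called), and NAPSA had a log2 change of -1.33 and was not called either (adjusted p 0.212). EPCAM and NAPSA were named after their values were seen. Of 5 endothelial markers, 3 were tested and 2 were called, each of them lower. The 2 called passed the filter on low counts through their DMSO libraries alone, so that they could only be called lower. The list summed to 12.8 and 49.0 CPM with DMSO and to 0.123 and 0.122 CPM with ACBI1, of which PECAM1 made 12.2 and 48.1 CPM with DMSO, while CDH5, another defining endothelial gene, had 6 and 0 counts in these groups. Of 4 fibroblast markers, all of them tested, 3 were called, each of them lower, and the list summed to 31.6 and 96.9 CPM with DMSO and to 9.38 and 13.2 CPM with ACBI1. Among the fibroblast markers called, DCN passed the filter through its DMSO libraries alone as well. The part of these markers in the values of IL1A, IL1B, IL1R1 and IL1RL1 was not tested. DMSO replicate 2 had the higher sums of the epithelial, leukocyte, endothelial and fibroblast marker lists. It also had the higher CPM of IL1R1, IL18, IL33, IL36G and IL1R2. DMSO replicate 1 had the higher CPM of IL1A, IL1B, IL1RAP and IL1RL1.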

How the data were processed

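Total RNA of 4 libraries, 2 with DMSO and 2 with ACBI1, was sequenced. The deposited files hold raw counts of reads per gene symbol, with 5 extra rows that name no gene (13.9% to 15.4% of all reads listed), which were left out of library sizes and tests. The submitters' processing notes name hg38, TopHat2 2.1.1 and HTSeq 0.11.0. Annotation, strand setting and filters are not given in the sources used here, so reads of overlapping or antisense genes may be misassigned. Groups and replicate numbers came from the sample titles.

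Genes were filtered with filterByExpr (minimum count 10, minimum total count 15), which kept 19159 of 61228 features, and scaled by TMM. Treatment was the only term of the quasi-likelihood model (estimateDisp, glmQLFit and glmQLFTest of edgeR 4.0.16, two-sided, R 4.3.3). Residual degrees of freedom were 2. Intervals are 95%. With 2 libraries a group, 0.333 is the smallest two-sided p that an exact permutation test of a single value allows, so none was run. Exonic lengths and positions came from GENCODE release 29 (95.5% of tested genes matched). The fit was checked on simulated counts in which 200 of 19159 genes were changed, a smaller share than the 17.4% called in the data. The fit recovered 26.9% of log2 changes of size 1, 73.2% of size 2 and 100% of size 4, with 2 false calls. A gene not called may therefore still have changed. The recovered shares may differ where more genes change. Alternatives were other scalings, filters, DESeq2 1.42.0, limma-voom 3.58.1, the replicate number as a block, and each library left out in turn.

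The members and lists were chosen with earlier results of these data known. The text names all family genes, the degrader's targets, at most 4 called genes in each direction of each other list, and at most 4 called flanking genes. Intervals of count ratios cover counting error only, since PCR duplicates are counted too.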

Additional observations from a re-analysis of the deposited data

How the results depend on the processing

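IL1A, IL1B, IL1R1 and IL1RL1 were called lower under every alternative that could test them, over 12 alternatives for IL1A, IL1B and IL1R1 and 11 for IL1RL1, which a minimum mean of 5 CPM removed together with IL36G and IL1R2. With the filter on low counts, IL1B and IL1RL1 passed through their DMSO libraries alone, so that they could only be called lower. Leave-one-out fits assume that a lone library varies like the other group. With each library left out in turn, log2 changes ran from -14.80 to -12.97 for IL1B, -8.10 to -7.30 for IL1A, -2.58 to -1.52 for IL1R1, -5.41 to -4.33 for IL1RL1, -4.69 to -3.23 for IL36G, -3.95 to -0.42 for IL1R2, -0.85 to -0.58 for IL1RAP and -1.10 to 0.0111 for IL18. The sign of IL18RAP changed under upper-quartile scaling (0.0315), library size only (0.0882) and with a library left out (-0.45 to 0.30), and that of PBRM1 with a library left out (-0.0374 to 0.24).

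IL1RAP was called with every gene that had a count (log2 change -0.71), with a mean of at least 5 CPM (-0.71), with DESeq2 (-0.70) and with the replicate block (-0.71). With each library left out, calls numbered 1682 (without ACBI1 replicate 1) to 3799 over all genes, with 2126 without ACBI1 replicate 2. They numbered 4 to 6 among members, 1 to 3 among other family genes, 6 to 8 among processing genes, 4 to 9 among signalling genes and 4 to 5 among flanking genes. Testing every gene with a count gave 5518 calls over all genes, and the minimum of 5 CPM left 5 processing genes called. The cause of these differences was not tested.

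The labels do not say what a replicate number shares. Deviations of same-numbered libraries correlated across 19159 genes (Pearson's r 0.44), over 2 pairs. With the replicate block, 7909 genes, 6 members, 12 flanking genes and 15 signalling genes were called, and SMARCA4 (adjusted p 0.00248) and SMARCA2 (0.0394) were among the calls. Depth limits IL1RN, IL33, IL36G and IL1R2, each with under 60 counts in all.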

Other observations

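Within the family, levels of paired genes can be compared per kilobase of exonic length, as a description without a test. The level of IL18BP was 1.58 and 0.551 times that of IL18 in DMSO replicates 1 and 2, and 3.44 and 1.99 times in ACBI1 replicates 1 and 2. The level of IL1R1 was 2.36 and 5.59 times that of its accessory chain IL1RAP with DMSO, and 1.23 and 1.67 times with ACBI1. For each of these ratios the DMSO libraries differed from each other by more than 2-fold, and the groups did not overlap. Groups without overlap were common, found for 63.2% of all tested genes taken singly. IL18 itself was not called, and the call on IL18BP was close to the threshold. The summed CPM of the 8 members other than IL1A and IL1B was 77.4 and 125 with DMSO and 37.1 and 36.8 with ACBI1.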
